A study of Homo sapiens with 39 samples.

Results

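The transcripts described here encode 9 transcription factors that mark neuroendocrine and lung cell identity: INSM1, ISL1, NEUROG2, NEUROD1, NKX2-1, FOXA2, FOXA1, SOX21 and SOX2. They were named as a set, and every probe annotated to them was taken. The set was drawn up with earlier results of these arrays known. Of the 9, 8 had at least 1 annotated probe, 12 probes in all, and 10 of those probes passed the filter on dim signals, so that 8 of the 18555 tested genes belong to the set. NEUROD1 was not analysed here.

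RNA was profiled on Illumina bead arrays in 2 established human lines: NCI-H209, here H209, from a small cell lung carcinoma, and NCI-H838, here H838, from a lung adenocarcinoma. Treated cultures received DKFZ-608 at 100 nM, a code-named compound that the series title calls a non-covalent inhibitor of thioredoxin reductase (TRXR1). Its carrier was 6.9 µM cyclodextrin, and vehicle cultures received the carrier alone. The H209 arrays were 3, 2 and 3 of DKFZ-608 at 4, 8 and 24 h, and 3, 3, 2 and 3 of vehicle at 0, 4, 8 and 24 h. The H838 arrays were 3, 3 and 2 of DKFZ-608 at the same times, and 3 of vehicle at each of the 4 times, which makes 39 arrays. Each group rests on 1 line, and the labels do not say whether replicates were separate cultures. The p-values therefore cover array-to-array spread, which may be technical.

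Neuroendocrine identity in small cell lung cancer rests on basic helix-loop-helix factors such as NEUROD1 and NEUROG2, on the zinc finger factor INSM1 and on the LIM homeodomain factor ISL1, which together keep genes for peptide hormones, granins and synaptic proteins active. NKX2-1 is a homeodomain factor that the lung epithelium needs from its first appearance, and it is used in the clinic as a marker of lung adenocarcinoma and of small cell carcinoma. FOXA1 and FOXA2 are forkhead pioneer factors of the foregut, which open closed chromatin for other factors. SOX2 keeps progenitor states in the foregut and the nervous system, and SOX21 is a related HMG box repressor that acts in neural progenitors and airway cells.

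The promoters of ISL1, the member called lower at 4 h in treated H209 cells, and of NKX2-1, NEUROG2 and FOXA1, called only in alternative fits (FOXA1 as higher), are printed to show the sequence just before each start. Each is the 250 bases before the RefSeq start on GRCh38.p14, 5′ to 3′ on the gene's own strand, with motif matches in capitals.
ISL1: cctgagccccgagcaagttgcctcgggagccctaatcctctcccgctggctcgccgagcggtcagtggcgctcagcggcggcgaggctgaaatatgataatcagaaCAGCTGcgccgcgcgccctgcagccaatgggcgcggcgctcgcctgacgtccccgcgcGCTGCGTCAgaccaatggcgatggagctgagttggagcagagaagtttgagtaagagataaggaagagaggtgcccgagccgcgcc
NKX2-1: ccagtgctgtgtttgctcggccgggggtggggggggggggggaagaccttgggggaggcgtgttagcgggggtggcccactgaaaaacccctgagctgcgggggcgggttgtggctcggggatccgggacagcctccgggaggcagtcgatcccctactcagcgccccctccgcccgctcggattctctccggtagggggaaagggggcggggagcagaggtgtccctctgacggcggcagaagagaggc
NEUROG2: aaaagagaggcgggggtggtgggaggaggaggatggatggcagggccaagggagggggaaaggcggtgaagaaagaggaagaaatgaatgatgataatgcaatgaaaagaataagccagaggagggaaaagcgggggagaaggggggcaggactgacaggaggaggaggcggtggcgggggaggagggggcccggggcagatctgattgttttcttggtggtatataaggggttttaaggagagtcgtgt
FOXA1: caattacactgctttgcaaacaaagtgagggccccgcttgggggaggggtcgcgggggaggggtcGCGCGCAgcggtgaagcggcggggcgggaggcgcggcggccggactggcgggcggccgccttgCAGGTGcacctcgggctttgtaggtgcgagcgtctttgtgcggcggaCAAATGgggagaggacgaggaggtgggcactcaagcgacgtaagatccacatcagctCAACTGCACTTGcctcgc

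The windows are chr5:51383198-51383447 on the plus strand (ISL1), chr14:36520233-36520482 on the minus strand (NKX2-1), chr4:112516181-112516430 on the minus strand (NEUROG2) and chr14:37595250-37595499 on the minus strand (FOXA1). Motifs were searched on both strands: the E-box CANNTG, the forkhead motif TGTTTAC, the heat shock element GAANNTTC, the antioxidant response element core TGACNNNGC and the metal response element cores TGCACNC and TGCGCNC. The ISL1 window held 1 E-box and 1 antioxidant response element core, and the FOXA1 window held 4 E-boxes and 1 TGCGCNC. The NKX2-1 and NEUROG2 windows held none of these letters. Among 35116 promoters of the same length, 61.8% held an E-box, 10.9% the antioxidant response element core and 16.8% TGCGCNC. GC content was 65.2% for ISL1, 70.8% for NKX2-1, 56.0% for NEUROG2 and 67.2% for FOXA1, against a median of 58.0% over all promoters. A match is a description of letters and not a binding site. INSM1 and FOXA2 had no promoter sequence in the sources used here. The windows of SOX21, SOX2 and NEUROD1 are not printed.

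Values below are probe intensities on a linear scale as deposited, with a median of 93.6 over the whole table. Background was not subtracted to 0, so folds of dim probes are understated, and levels are compared only for 1 probe between arrays. The 10 measured markers of small cell carcinoma include INSM1, and their summed intensity ran from 27890 to 31280 in H209 arrays and from 5322 to 7056 in H838 arrays. All 10 averaged over 2 times the table median in H209, against 2 of 10 in H838. The 12 markers of lung adenocarcinoma and other epithelial cells did not follow the line labels: their sum ran from 11690.0 to 14210.0 in H209 and from 5278 to 6289 in H838, with 6 of 12 over that level in each line. At 0 h, the epithelial adhesion genes CDH1 (log2 difference 4.07) and EPCAM (5.11) were among 6 of them called higher in H209, and AXL (-3.37) and CAV1 (-3.92) among 4 called lower. The 6 fibroblast, 4 endothelial and 4 measured leukocyte markers had none over that level in H209, and 1, CD14, was over it in H838.

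In H209, 4 arrays stood apart from their labels. HMOX1, a haem-degrading enzyme induced by oxidative stress, and MT1M, a metal-binding metallothionein, showed it, since both changed many-fold at 4 h. HMOX1 had 5583, 4626 and 3762 in the DKFZ-608 arrays at 4 h, against 374, 292 and 361 in the vehicle arrays. At 8 h replicate 2, the array labelled DKFZ-608 had 272 and the array labelled vehicle 5662, while replicate 1 had 6542 in DKFZ-608 and 296 in vehicle. At 24 h replicate 3, the array labelled DKFZ-608 had 177 and the array labelled vehicle 2057, while replicates 1 and 2 had 1834 and 1569 in DKFZ-608 and 220.3 and 216 in vehicle. These 4 arrays thus carried the level of the other label for this gene. MT1M did the same: at 8 h replicate 2 it had 94.4 in the array labelled DKFZ-608 and 4609.6 in the array labelled vehicle, and at 24 h replicate 3 it had 80.3 and 1607 in the same order. Why they do so was not tested. The treatment results of the members in H209 are therefore given with all arrays as labelled and with these 4 left out. As the 4 were picked by their expression, p-values without them are a description and no independent evidence.

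The first comparison asks how far the set separates the untreated lines. All 8 measured members were higher in H209 than in H838 vehicle cultures at 0 h by limma at an adjusted p under 0.05, a call that 24.5% of all genes received (4549 of 18555). NKX2-1 passed the filter on dim signals through H209 alone, as its highest H838 value was 90.0. The other members also had H838 arrays above the table median. The set was chosen with earlier results known, so this count is a description. ISL1 stood 56.4-fold higher (log2 difference 5.82 ± 0.13 SE, adjusted p = 6.85e-28, n = 3 each) and INSM1 38.6-fold higher (5.27 ± 0.12). Among the foregut factors FOXA2 was 21.9-fold and FOXA1 11.7-fold higher. NEUROG2, a proneural factor, was 8.3-fold and NKX2-1 5.69-fold higher in H209. On the second kept NKX2-1 probe the log2 difference was smaller, 1.32 ± 0.13, against 2.51 ± 0.17 on the first. SOX21 was 1.98-fold (adjusted p = 7.69e-06) and SOX2 1.47-fold higher (adjusted p = 3.26e-06).

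Every H209 array lay above every H838 array for all 8 members, as for 27.3% of all genes. ISL1 had 5205, 4608 and 5123 in H209, against 93.9, 83.2 and 87.6 in H838. INSM1 had 3835, 3464 and 3822 in H209, against 92.7, 104 and 91.2 in H838, and NKX2-1 had 527, 460.0 and 419 against 82.5, 82.5 and 81.1. In H838 every member thus lay near the table median, where a bead array cannot separate a low transcript from none, so these folds depend on the background left in the H838 values. SOX2 had 117, 133 and 113 in H209, against 77.1, 85.2 and 84.0 in H838. The second SOX2 probe ran from 77.7 to 111 over all H209 arrays and from 78.5 to 96.6 over all H838 arrays. The 2 further FOXA2 probes stayed between 69.6 and 92.5 in H209, did not pass the filter, and disagree with the probe that stands for the gene.

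**Figure D1:**
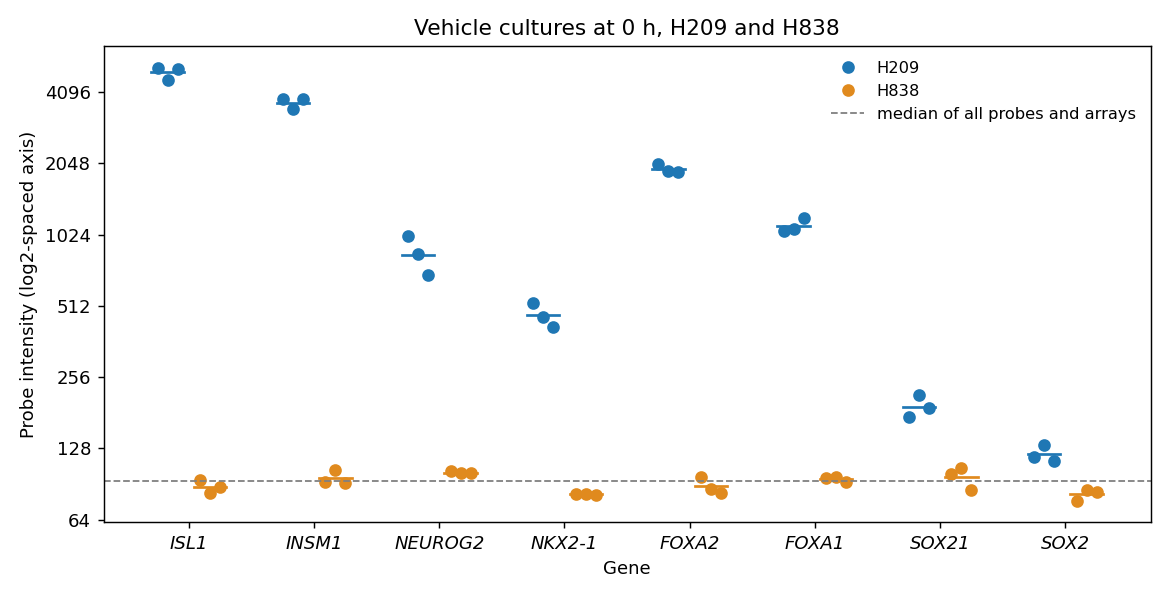
Probe intensity (log2-spaced axis) of 8 lineage factors in the 3 H209 and 3 H838 vehicle arrays at 0 h. Points are arrays, short lines are group means on the log2 scale, and the dashed line is the table median of 93.6; each H209 array lies above each H838 array of the same gene, and the H838 points lie near the dashed line.

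Of 26 measured neuroendocrine products, 24 were higher in H209 and 0 lower, among them GRP, a bombesin-like peptide (log2 difference 7.33), the granins SCG2 (5.86) and SCG3 (4.50), and SCG5, a chaperone of a prohormone convertase (3.86). Of 38 other neuroendocrine and neural factors, 16 were higher and 3 lower; HES6, which counters HES1, differed by 5.60 and the zinc finger factor MYT1 by 4.52. Among 33 other lung and foregut factors 11 were higher and 10 lower, with IRX2 higher by 5.26 and IRX3 lower by -3.27. Of 19 repressors of the neuroendocrine programme or markers of other subtypes, 4 were higher and 7 lower, among them TEAD4 (-2.98) and YAP1 (-2.88), partners in Hippo signalling. Over all genes, 24.5% were called higher and 21.3% lower. The lung and foregut list was called somewhat more often than that in each direction, a difference that was not tested.

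The next comparison asks what DKFZ-608 did to these transcripts in H209 after 4 h, the time at which HMOX1 and MT1M were high in every DKFZ-608 array and low in every vehicle array. ISL1 was called lower, and the other 7 members did not pass the test. ISL1 had 3151, 3020.0 and 3148 in DKFZ-608 arrays, against 4943, 5030.1 and 4755 in vehicle arrays. The treated arrays lay close together and well below every vehicle array. The means were 3106 ± 74.8 in DKFZ-608 and 4909 ± 141 in vehicle arrays (SD, n = 3 each). The log2 difference was -0.66 ± 0.13 (limma, adjusted p = 0.00597), a level 36.7% lower in treated cells. The call covers 1 of 8 members, beside 0.124% of all genes called lower (23 of 18555). An unadjusted p under 0.05 was reached by 6 of 8 members and by 1394 of the 18555 genes, in either direction. In bulk RNA, fewer cells of a type and less RNA per cell cannot be told apart.

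Of the other neuroendocrine factors, NEUROG2 had 619, 482 and 443 in DKFZ-608 arrays, against 956, 844 and 673 in vehicle arrays (log2 difference -0.68 ± 0.18, adjusted p = 0.0712). Every treated array of this proneural factor lay below every vehicle array, although both groups were spread widely. INSM1 had 3098, 3157 and 3332 in DKFZ-608 arrays, against 4026, 3871 and 3557 in vehicle arrays (-0.26 ± 0.12, adjusted p = 0.624). Its treated arrays lay below its vehicle arrays, but the difference did not pass the test. Among the foregut factors, FOXA2 had 1263, 1233 and 1269.5 in DKFZ-608 arrays, against 1965, 1814 and 1631 in vehicle arrays (-0.52 ± 0.13, adjusted p = 0.0627). NKX2-1 had 367, 344 and 350.2 in DKFZ-608 arrays, against 551, 561 and 446 in vehicle arrays (-0.55 ± 0.17, adjusted p = 0.186). Both were lower in each treated array than in any vehicle array. The second NKX2-1 probe had 204, 165 and 155 in DKFZ-608 arrays, against 259.9, 207 and 195 in vehicle arrays, and these overlap, since replicate 1 of the treated arrays lies above replicate 3 of the vehicle arrays.

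FOXA1 had 1215, 1478 and 1405 in DKFZ-608 arrays, against 1116, 1174 and 1229.6 in vehicle arrays (0.22 ± 0.11, adjusted p = 0.687). The lowest treated array lay below the highest vehicle array, so the groups overlap and no rise was called. SOX21 had 157, 157 and 171 in DKFZ-608 arrays, against 194, 229 and 204 in vehicle arrays (-0.37 ± 0.17, adjusted p = 0.615). SOX2 had 107, 107 and 104 in DKFZ-608 arrays, against 108, 128 and 122 in vehicle arrays, close to the table median (-0.16 ± 0.09, adjusted p = 0.743). Neither SOX factor passed the test. The SOX2 groups are separated by under 1 unit, and they overlap on its second kept probe, with 109, 77.7 and 91.9 in DKFZ-608 arrays, against 96.0, 102 and 97.6 in vehicle arrays. On the probes that stand for the genes, 7 of 8 members had every treated array below every vehicle array, against 7.65% of all genes. The median log2 difference over the 8 members was -0.44, beside -0.01 over all genes, 53.3% of which were negative.

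The spread behind these tests is shared by all groups and so includes the 4 arrays that stood apart. Without them, the 4 h differences are the same and their errors smaller. ISL1 (SE 0.07, adjusted p = 2.02e-08), FOXA2 (SE 0.07, adjusted p = 1.15e-05), NKX2-1 (SE 0.09, adjusted p = 0.000221) and NEUROG2 (SE 0.12, adjusted p = 0.000321) then passed. These are 4 of 8 members, beside 0.658% of all genes called lower. From the 6 H209 arrays at 4 h alone, a fit chosen after seeing the data, 3 of 8 members passed, beside 0.135% of all genes called lower: ISL1 (adjusted p = 0.000748), FOXA2 (0.0162) and NKX2-1 (0.0316), while NEUROG2 had 0.0981. With the spread taken from H209 arrays alone and all of them kept, ISL1 no longer passed (adjusted p = 0.204), and neither did another member. At 4 h, treated and vehicle arrays of the same replicate number deviated together. With the number as a block within each line, ISL1 (limma, adjusted p = 0.00626), NEUROG2 (0.00926) and FOXA2 (0.0437) passed. These are 3 of 8 members beside 0.34% of all genes called lower. This block spans all times and arrays, and at 8 and 24 h the H209 pairs had negative r, from -0.59 to -0.04.

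**Figure D2:**
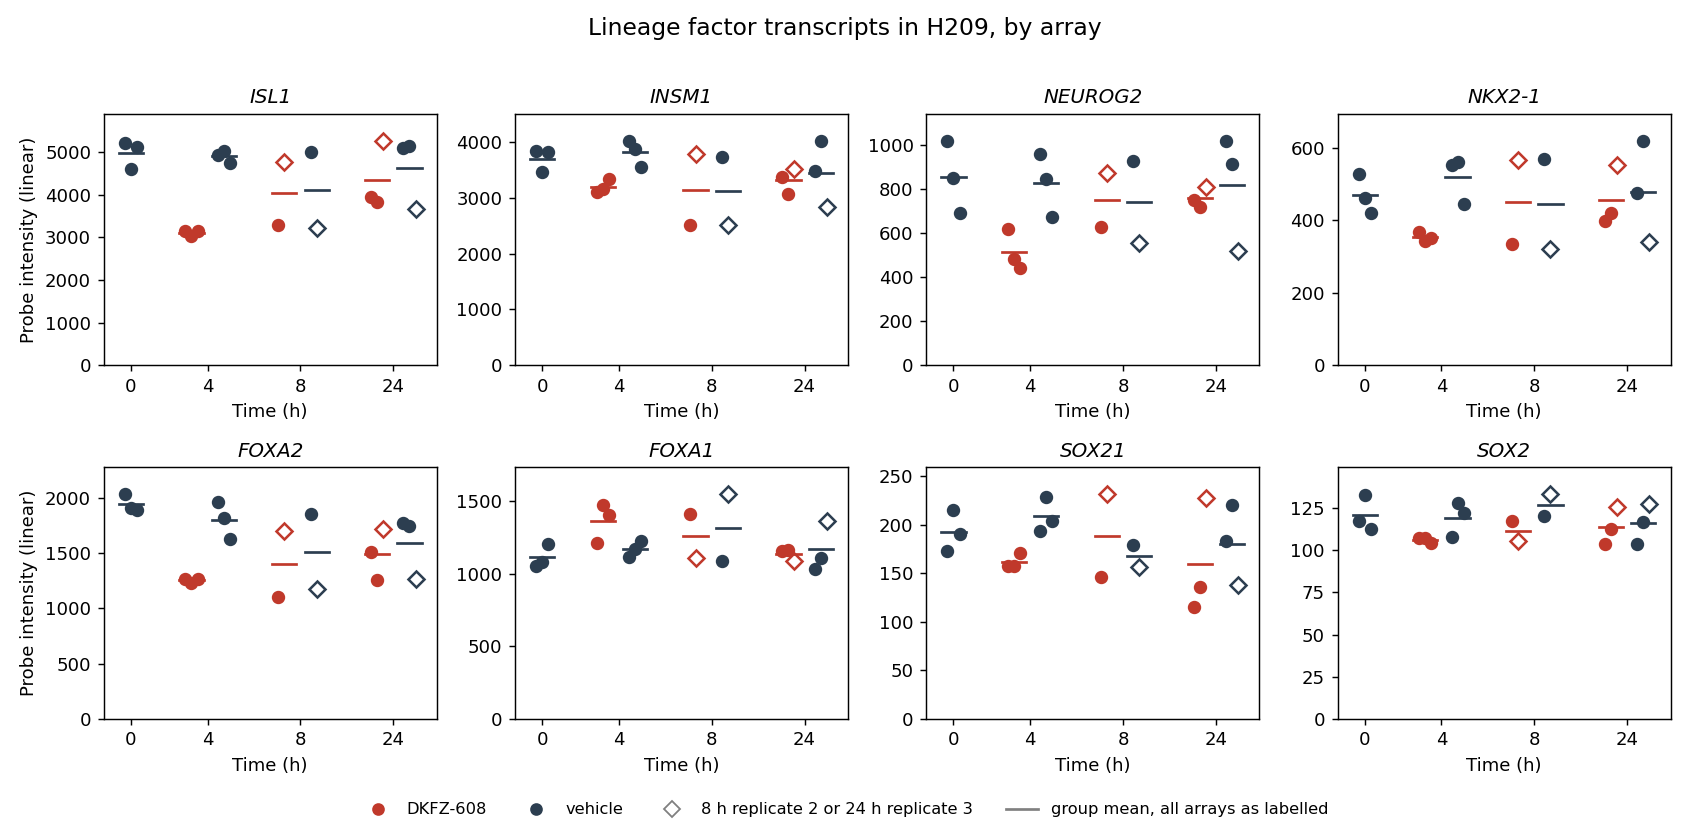
Probe intensity (linear, axes from 0) of 8 lineage factors in each of the 19 H209 arrays, with DKFZ-608 left of vehicle at 4, 8 and 24 h (times evenly spaced, not to scale) and vehicle alone at 0 h. Filled points are arrays, open diamonds are the 8 h replicate 2 and 24 h replicate 3 arrays, and lines are means of all arrays as labelled; at 4 h the red points of ISL1 lie near 3106 and the dark points near 4909, and at 8 and 24 h the open diamonds of ISL1 lie at the level of the other label.

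At 8 h, with all arrays as labelled, limma called 0 of 8 members, and 0.0% of all genes were called lower. An unadjusted p under 0.05 was reached by 0 members and by 396 of 18555 genes. ISL1 had 3297 and 4763 in replicates 1 and 2 of DKFZ-608, against 4996 and 3217 in the same replicates of vehicle. Replicate 1 has the order seen at 4 h and replicate 2 the opposite one. NKX2-1 had 335 and 567 in DKFZ-608, against 568 and 320.3 in vehicle, FOXA2 had 1103 and 1697 against 1855 and 1171, and NEUROG2 had 626 and 871 against 927 and 556. INSM1 had 2512 and 3784 in DKFZ-608, against 3733 and 2512 in vehicle. SOX21 had 146 and 231 in DKFZ-608, against 179 and 157 in vehicle. All 6 were lower in the treated array of replicate 1 and higher in that of replicate 2. FOXA1 had the reverse order in each replicate, with 1412 and 1110.2 in DKFZ-608, against 1090.3 and 1549 in vehicle. The SOX2 arrays did not follow this pattern, with 118 and 106 in DKFZ-608, against 120.5 and 133 in vehicle.

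With the 4 arrays left out, 1 array a group remained at 8 h, and the test then assumes that it varies like the other groups. On that footing 4 of 8 members were called lower, beside 0.399% of all genes: FOXA2 by -0.75 ± 0.12 (adjusted p = 0.000352), NKX2-1 by -0.76 ± 0.16 (adjusted p = 0.00555), ISL1 by -0.60 ± 0.11 (adjusted p = 0.00218) and INSM1 by -0.57 ± 0.13 (adjusted p = 0.0141). NEUROG2, at -0.57 ± 0.20, and FOXA1, at 0.37 ± 0.15, did not pass. The FOXA2 level was 40.6% lower and the NKX2-1 level 41.1% lower in the treated array.

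At 24 h, with all arrays as labelled, limma again called 0 of 8 members, and 0.0% of all genes were called lower. An unadjusted p under 0.05 was reached by 0 members and by 439 of 18555 genes. ISL1 had 3957, 3825 and 5267 in replicates 1 to 3 of DKFZ-608, against 5096, 5139 and 3656 in vehicle. The treated arrays 1 and 2 lay below the vehicle arrays 1 and 2, and replicate 3 had the opposite order. FOXA2 had 1508, 1255 and 1719 in DKFZ-608, against 1769, 1745 and 1267 in vehicle, and NKX2-1 had 398, 419 and 552 against 475, 619 and 339.8. SOX21, the SOX factor of neural progenitors and airways, had 116, 136 and 228 in DKFZ-608, against 183, 221 and 138 in vehicle. All 3 showed the same turn in replicate 3. NEUROG2 had 747, 715 and 807 in DKFZ-608, against 1017, 912 and 516 in vehicle, and INSM1 had 3375, 3079 and 3525 against 3483, 4017 and 2843. FOXA1 had 1159, 1165 and 1089 in DKFZ-608, against 1033, 1109 and 1366 in vehicle, and SOX2 had 104, 113 and 126 against 104, 117 and 128. The ranges of treated and vehicle arrays overlapped for every member as labelled, as they did for most genes. Every treated array lay below every vehicle array for 2.82% of all genes, and above for 2.91%.

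At 24 h without the 4 arrays (2 a group), 3 of 8 members were called lower, beside 0.442% of all genes. SOX21 differed by -0.68 ± 0.12 (adjusted p = 0.00101), ISL1 by -0.40 ± 0.08 (adjusted p = 0.00365) and FOXA2 by -0.35 ± 0.09 (adjusted p = 0.0247). NKX2-1 missed the threshold at -0.41 ± 0.11 (adjusted p = 0.0504), and NEUROG2, at -0.40 ± 0.14, did not pass either. The step in ISL1 was 24.0% at 24 h, against 36.7% at 4 h. The change of effect between these times was tested itself by limma, and 0 of 8 members passed with all arrays or without the 4. Over all 18555 genes, 0 passed as higher and 6 as lower with all arrays, and 47 and 26 without the 4. An unadjusted p under 0.05 was reached by 4 members and 846 genes with all arrays, and by 1 member and 1208 genes without the 4 arrays. The values without them were 0.26 ± 0.10 for ISL1 (adjusted p = 0.565) and -0.32 ± 0.16 for SOX21 (adjusted p = 0.798).

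**Figure D3:**
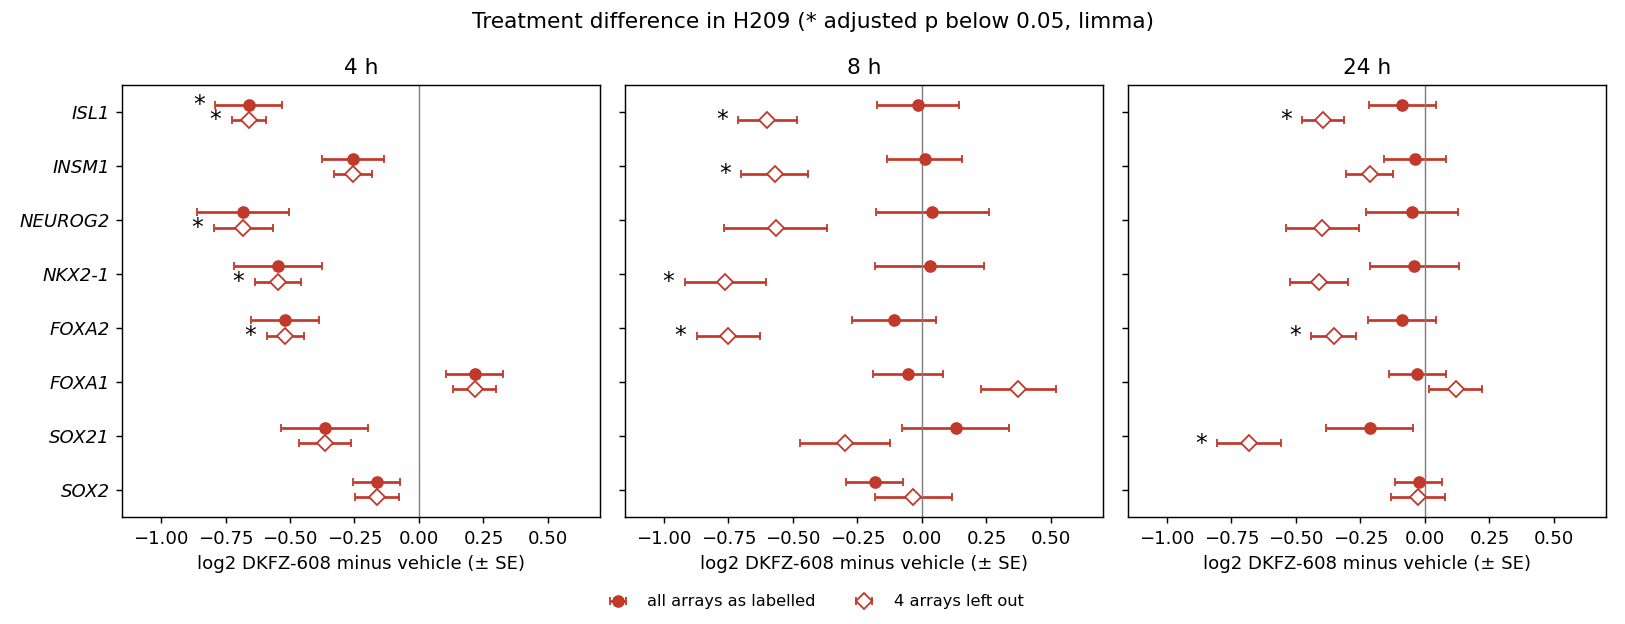
log2 difference of DKFZ-608 minus vehicle in H209 at 4, 8 and 24 h, with standard errors, for 8 lineage factors. Filled circles use all arrays as labelled and open diamonds leave out the 8 h replicate 2 and 24 h replicate 3 arrays; the ISL1 diamonds lie at -0.66, -0.60 and -0.40, while its circle is marked by a star at 4 h alone.

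For the mean of the 3 times, all arrays as labelled gave 0 of 8 members called by limma and 0.0% of all genes called lower, with ISL1 at -0.26 ± 0.08 (adjusted p = 0.697). An unadjusted p under 0.05 was reached there by 4 members and by 796 of 18555 genes. Leaving out the 4 arrays, 6 of 8 members were called lower, beside 2.13% of all genes: ISL1 by -0.55 ± 0.05 (adjusted p = 2.88e-09), FOXA2 by -0.54 ± 0.06, NKX2-1 by -0.57 ± 0.07, NEUROG2 by -0.55 ± 0.09, INSM1 by -0.35 ± 0.06 and SOX21 by -0.45 ± 0.08. FOXA1 was the 1 member called higher (0.24 ± 0.07, adjusted p = 0.029), beside 2.74% of all genes. Its forkhead relative FOXA2 was thus lower where FOXA1 was higher, in the same arrays. SOX2 differed by -0.07 ± 0.07 (adjusted p = 0.712). The second NKX2-1 probe differed by -0.31 ± 0.08 (limma, adjusted p = 0.0142 over all kept probes). The median over the members was -0.49, beside -0.01 over all genes.

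In H838, DKFZ-608 gave no called change in the set. With all arrays limma called 0 of 8 members at 4, 8 or 24 h, beside 0.0% of all genes called lower at each time. An unadjusted p under 0.05 was reached by 0 members, beside 493, 638 and 562 of 18555 genes at these times. Without the 4 H209 arrays limma called 0 of 8, beside 4, 5 and 2 of 18555 genes called higher and 0 lower at these times. At 24 h, 1 member, ISL1 (higher by 0.16 ± 0.07), and 578 genes then reached an unadjusted p under 0.05. Every treated array lay above every vehicle array at 24 h for ISL1, NKX2-1 and FOXA2, as for 8.46% of all genes. At 4 h this held for FOXA2 (3.91% of all genes), and NEUROG2 had the reverse (4.15%). At 4 h ISL1 had 80.9, 84.7 and 86.0 in DKFZ-608, against 85.7, 88.5 and 98.5 in vehicle, and INSM1 had 98.0, 101 and 96.7 against 101, 93.8 and 96.4. Over all 20 H838 arrays the probes that stand for the members ran from 74.7 (SOX2) to 115 (INSM1). At such levels a fall could not be seen, so these values do not bear on whether the compound lowers the set in H838. A large rise could be seen, and none was called.

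The members lie at background in H838, where a fall could not be seen and no rise was called. A test of the effect in H209 minus that in H838 therefore mainly restates the H209 effect. With H838 at background, this test cannot show whether the lines respond differently. With all arrays limma called 0 of 8 members at 4 h, beside 0.0% of all genes called lower. An unadjusted p under 0.05 was reached by 6 members and by 996 of 18555 genes. Without the 4 arrays it called 3 of 8 at 4 h, beside 0.113% of all genes, and 6 of 8 for the mean of times, beside 0.701%.

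**Figure D4:**
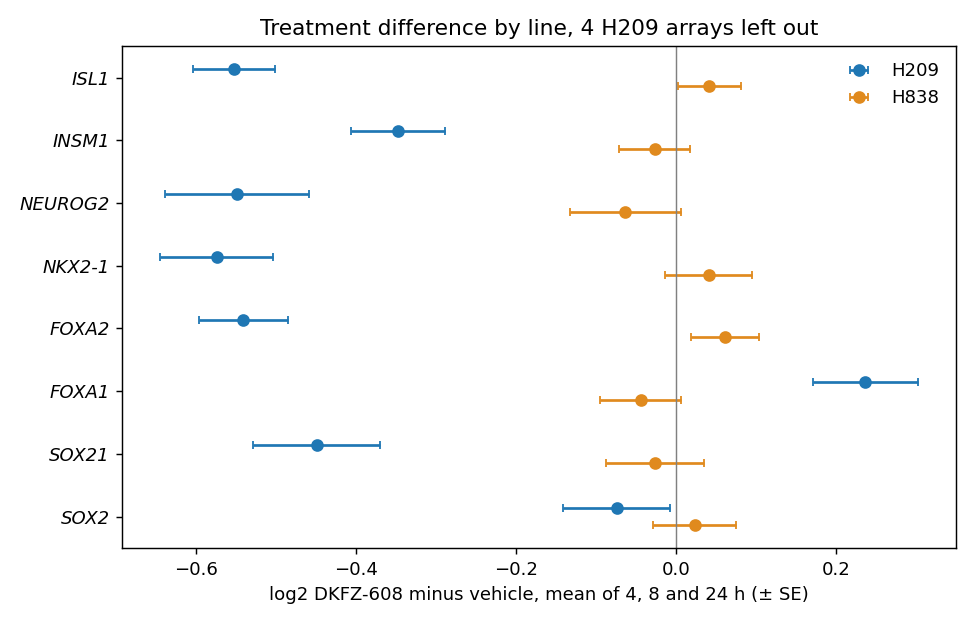
log2 difference of DKFZ-608 minus vehicle, mean of 4, 8 and 24 h, with standard errors, in H209 and H838, with the 4 H209 arrays left out. ISL1, INSM1, NEUROG2, NKX2-1, FOXA2 and SOX21 lie left of 0 in H209 and FOXA1 right of it, while the H838 points lie near 0, where all members are at background intensity.

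No member was called for a drift over time in culture without the compound. Against 0 h, limma called 0 of 8 members at 4 h, beside 0.0% of all genes in H209 and 0.00539% in H838. At 24 h it called 0 of 8 in H838, beside 1.89% of all genes, and 0 of 8 in H209, beside 0.0162% of all genes with all arrays and 0.0593% without the 4. An unadjusted p under 0.05 was reached by 0 members at 4 h in either line and by 1 at 24 h in H209, which was FOXA2 with all arrays (-0.30 ± 0.13) and NKX2-1 without the 4 (0.22 ± 0.10). In H838 at 24 h 0 members did. Over all genes, 697 did at 24 h in H209 with all arrays, 883 without the 4, and 2053 at 24 h in H838 with all arrays. In H209 at 4 h the differences ran from -0.11 ± 0.13 (FOXA2) to 0.15 ± 0.17 (NKX2-1), and ISL1 differed by -0.02 ± 0.13.

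Other genes of the same pathways were counted over lists chosen with earlier results known. With all arrays, the mean of times called 0 genes in any of the 5 lists, as it called 0.0% of all genes higher and 0.0% lower, so each call for that mean below rests on leaving out the 4 arrays, where 2.74% of all genes were called higher and 2.13% lower. At 4 h, the shares called higher were 0.528% with all arrays and 1.22% without the 4, beside the shares called lower given above. Of 38 other neuroendocrine and neural factors, 0 were called at 4 h in H209 in either fit (median -0.04). For the mean of times without the 4 arrays, 3 were called lower, PROX1 (-0.40 ± 0.07), TCF12 (-0.32 ± 0.06) and TCF4 (-0.22 ± 0.06), and 1 higher, LMX1A (0.29 ± 0.06). TCF12 and TCF4 are E proteins, the partners with which proneural factors such as NEUROG2 bind DNA. Of 26 neuroendocrine products, 0 were called at 4 h with all arrays and 1, SCG2 (0.33 ± 0.08), higher without the 4. The mean of times without the 4 called SCG2 (0.36 ± 0.06), the peptide gene CALCA (0.42 ± 0.08) and UCHL1, a deubiquitinase abundant in neurons (0.28 ± 0.08), higher, and the Notch ligand DLL3 lower (-0.26 ± 0.06). The list had a median of -0.08 there, and most of its members were not called.

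Among 33 other lung and foregut factors, 2 were called higher and 1 lower at 4 h with all arrays. CEBPB, a stress-responsive C/EBP factor, differed by 0.77 ± 0.16 (adjusted p = 0.0126), KLF4 by 0.72 ± 0.17 (adjusted p = 0.0347) and CEBPD by -0.52 ± 0.10 (adjusted p = 0.00573). Without the 4 arrays 2 were higher and 2 lower at 4 h, with IRX2 (-0.43 ± 0.10) added. The mean of times then called 4 higher and 2 lower, with CEBPB (0.70 ± 0.08), ETV5 (0.62 ± 0.10), IRX2 (-0.47 ± 0.08) and KLF4 (0.46 ± 0.10) at the smallest p. Of 16 surfactant and secretory genes, 0 were called at 4 h in either fit. The mean of times without the 4 called LAMP3 higher (0.44 ± 0.09) and MUC1 lower (-0.38 ± 0.10). Of 19 repressors and factors of other subtypes, 1 was called at 4 h in both fits, HEY1, a Notch-responsive repressor, higher by 1.10 ± 0.17 (adjusted p = 0.000292 with all arrays). The mean of times without the 4 called HEY1 (0.68), MYC (0.71) and HEYL (0.29) higher and 0 lower.

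Across the 19 H209 arrays, Pearson's r on log2 values was used to describe which profiles ran alike; the arrays fall into treated-like and vehicle-like profiles and share the deposited scale, so r reflects that split and is given without a test. ISL1 and FOXA2 had r = 0.93, ISL1 and NKX2-1 0.888, and NKX2-1 and NEUROG2 0.863. FOXA1 ran opposite, at -0.907 with NEUROG2 and -0.838 with ISL1. SOX2 followed none of them, with r from -0.211 (INSM1) to 0.255 (SOX21). Among tested genes outside the set, the profile most like ISL1 was that of PRR15L (0.967), the one most like FOXA2 that of PDE9A (0.93), and the one most like NKX2-1 that of BOLA2 (0.909). NEUROG2 was nearest to RRAGA (0.937), INSM1 to QSOX2 (0.936), FOXA1 to JMY (0.957), SOX21 to CTXN1 (0.894) and SOX2 to CRELD1 (0.828).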

How the data were processed

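The authors deposited 1 linear intensity per probe and array; the labels record column RNA extraction and biotin cRNA labelling, and the normalization by the authors is not given in the sources used here. Groups came from the titles; for 1 H209 vehicle array (24 h, replicate 3) the time field says 8 h, and for another (24 h, replicate 2) it is empty. Of 48107 probes, 20 with empty cells were left out, values under percentile 1 (75.8) were set to it, and log2 was taken. Probes above the table median in at least 2 arrays (42925) were kept, and 26943 of these had 1 gene symbol, from the platform annotation, in which 17976 probes of the table are not listed. The probe with the highest mean stood for a gene. limma 3.58.1 in R 4.3.3 fitted 14 group means over 39 arrays (25 residual and 6.79 prior degrees of freedom) and 16 contrasts, two-sided, with Benjamini-Hochberg adjustment over all 18555 genes at 0.05, and was tested on simulated data. Errors of differences are standard errors. Same-number treated and vehicle arrays of H209 at 4 h deviated together (r = 0.48, 0.14 and 0.55), and the number was used as a block in an alternative fit. Over all 16 pairs r ran from -0.59 to 0.55, with 8 over 0.1. The lowest r is that of the H209 pairs at 8 h, where 2 arrays a group make it equal in both pairs. Every member is named with every probe; up to 4 genes of a context list are named per contrast and fit by smallest p past the test. Members and lists were chosen with earlier results of these data known. The number of arrays limits the precision.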

Additional observations from a re-analysis of the deposited data

Results flagged for a closer look

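Differences of the DKFZ-608 effect between lines, H209 minus H838, passed the test of the difference itself in limma with the 4 H209 arrays left out, and in none of these cases with all arrays as labelled. At 4 h they were -0.63 for FOXA2, -0.55 for ISL1 and -0.52 for NKX2-1. For the mean of the 3 times they were -0.61 for NKX2-1, -0.60 for FOXA2, -0.59 for ISL1, -0.48 for NEUROG2, -0.42 for SOX21 and -0.32 for INSM1. In H838 each of these probes lay near the table median of 93.6, at which a fall could not be seen, so the values restate the H209 effect and do not show that the lines respond differently.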

How the results depend on the processing

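Of 16 counts of called members, 10 kept their value within 1.5 times under every alternative run. Each count takes calls in both directions together, and for the mean of times without the 4 arrays it includes FOXA1, which was called higher. At 4 h in H209 the count was 1. It became 0 with the spread from H209 arrays alone, 4 with the 8 h replicate 2 and 24 h replicate 3 arrays left out, 3 with the time field in place of the title and 3 with the replicate block; leaving out 1 array gave 1 to 2, with 2 (ISL1 and NEUROG2) without treated replicate 1 or without vehicle replicate 3. Alternatives chosen after seeing the data gave 4 (H209 alone, the 4 arrays left out), 3 (the 4 h arrays of H209 alone) and 5 (replicate block, the 4 left out). At 8 h 0 became 4 without the 4 arrays, 2 in H209 alone without them and 5 with the block as well; at 24 h the counts were 3, 2 and 5, and for the mean of times 7, 7 and 7. Leaving out 1 array moved the mean of times from 0 to at most 1, without vehicle replicate 2 of 8 h (ISL1 -0.36, adjusted p = 0.0378). The difference between lines became 3 at 4 h and 6 for the mean of times without the 4 arrays, and 4 and 7 with the block as well. At 8 h, INSM1 (0.01), NKX2-1 (0.03) and NEUROG2 (0.04) had positive log2 differences as labelled and -0.57, -0.76 and -0.57 without the 4 arrays, with or without the block. The block changed no other count. Calls over all genes also rose without the 4 arrays, so the moves are not particular to the members. The share called lower went from 0.124% to 0.658% at 4 h and from 0.0% to 0.442% at 24 h. For the mean of times it is given above. Shares over all genes are not given here for H209 alone, the time field or the block without the 4. The cause was not tested; leaving out arrays also leaves fewer samples. Quantile normalization, no floor, no filter and other uses of probes moved none of these counts by over 1.5 times. Dim signal limits what can be seen in H838 and for SOX2.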
